A study of Mus musculus with 8 samples.

Results

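The genes described here are 10 amino acid transporters, Slc7a5, Slc3a2, Slc1a4, Slc1a5, Slc7a1, Slc7a6, Slc38a1, Slc38a2, Slc43a1 and Slc43a2, followed in splenic CD4+ T cells of mice before and after stimulation. They were chosen by name, with earlier results of these data known, and each had 1 row among the 27179 genes of the deposited table. The mice were C.Cg-Foxp3tm2Tch/J offspring, a strain with a green fluorescent reporter in the Foxp3 gene, and were 8 weeks old. The parents of the Cd offspring drank water with 10 ppm CdCl2 through mating and pregnancy, and the parents of the control offspring drank unspiked water. The spiked water was taken away around the birth. The cells were taken from spleen by negative selection for CD4 and sorted by flow cytometry. They were either lysed at once (0 h, Unstim) or cultured for 16 h with beads carrying anti-CD3 and anti-CD28 antibodies (Stim). The paper names the sequenced cells of control offspring as CD4+CD25- conventional T cells. The 4 groups, Ctr_Unstim, Ctr_Stim, Cd_Unstim and Cd_Stim, held 2 libraries each, which the labels number 6 and 7. The labels do not say whether a library is 1 mouse or a pool, so the spread given here is between libraries. All comparisons of Stim with Unstim are also comparisons of 16 h in culture with none, and the antibodies and the culture cannot be told apart.

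Amino acids enter T cells through carriers of the solute carrier families, and activated T cells, which grow before they divide, are known to depend on this import for protein synthesis and for signalling by the kinase mTORC1. Slc7a5 (LAT1) and Slc7a6 (y+LAT2) are light chains that carry large neutral and, for Slc7a6, also cationic amino acids, and both reach the membrane only as heterodimers with the heavy chain Slc3a2 (CD98). Slc1a5 (ASCT2) and Slc1a4 (ASCT1) exchange small neutral amino acids, glutamine among them for Slc1a5. Slc38a1 (SNAT1) and Slc38a2 (SNAT2) bring in glutamine and alanine with sodium, and Slc38a2 is known to be raised when amino acids are scarce. Slc7a1 (CAT1) carries arginine and lysine, and Slc43a1 (LAT3) and Slc43a2 (LAT4) let branched-chain and other neutral amino acids pass by facilitated diffusion.

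A promoter window from 250 bases before to 50 after an annotated start in RefSeq (GRCm38.p6) was found for 7 of the 10 genes, all but Slc7a5, Slc1a5 and Slc38a1. In these windows, which numbered 10, the letters CACGTG (an E-box, bound by MYC among others) and TGATGNAA (the amino acid response element, bound by ATF4 with a C/EBP partner) were searched on both strands. Both are known elements of genes that answer to growth signals or to amino acid supply. CACGTG was found in 1 of the 7 genes, Slc43a1, and is held by 8.09% of all 27025 genes with a window. TGATGNAA was found in 1 of the 7, Slc1a4, on the opposite strand, and is held by 4.51% of those genes. A match describes the letters only. The windows with a match, the ones that set Slc1a4 and Slc43a1 apart from the other 5 genes, follow 5′ to 3′ on the strand of the gene with the match in capitals. The Slc1a4 window lies at chr11:20332664-20332963 on the minus strand, and the Slc43a1 window at chr2:84840073-84840372 on the plus strand. Slc43a1 itself begins at chr2:84838855, so its window lies inside the gene. That window also overlaps a long noncoding RNA gene, D930003E18Rik. The windows of Slc3a2, Slc7a6 and Slc43a2 lie inside their genes as well, as does the Slc7a1 window at chr5:148392766-148393065.
Slc1a4: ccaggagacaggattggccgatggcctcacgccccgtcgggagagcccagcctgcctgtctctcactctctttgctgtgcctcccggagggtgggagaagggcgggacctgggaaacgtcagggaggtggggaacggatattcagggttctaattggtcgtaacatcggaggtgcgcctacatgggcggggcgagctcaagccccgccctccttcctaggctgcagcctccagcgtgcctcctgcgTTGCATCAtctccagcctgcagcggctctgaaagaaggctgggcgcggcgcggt
Slc43a1: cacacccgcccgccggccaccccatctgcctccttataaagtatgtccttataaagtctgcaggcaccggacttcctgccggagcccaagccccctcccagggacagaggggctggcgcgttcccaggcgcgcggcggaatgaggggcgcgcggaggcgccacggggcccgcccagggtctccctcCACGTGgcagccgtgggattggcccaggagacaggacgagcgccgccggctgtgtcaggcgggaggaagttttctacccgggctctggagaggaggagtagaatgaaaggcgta

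Slc43a2 also holds a microRNA gene, Mir3971, which has a row of its own in the table. Its hairpin lies at chr11:75551429-75551511 on the same strand as Slc43a2, within an intron of 3 of the 11 annotated Slc43a2 transcripts and within no exon. The mature microRNA, from RefSeq, lies at chr11:75551480-75551501 and is printed with its seed (bases 2 to 8) in capitals.
mmu-miR-3971: cUCCCCACcccuguaccaguga

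The libraries held 15542732 to 25486791 reads on genes, and the 10 transporters together took 0.126% to 0.198% of them. Levels are given as RPKM, reads scaled by the length of the transcript and the total of the library, so that genes of different length can be set side by side. T cell markers summed to 2332 to 3660 RPKM in the 8 libraries, and those of regulatory T cells (Foxp3 and Ikzf2) to 6.32 to 11.0 RPKM. Of 10 myeloid markers 8 stayed under 1 RPKM in every library (sum 1.44 to 2.95 RPKM, Cd14, S100a8 and S100a9 at 0), as did 6 of 7 erythroid and platelet markers (sum 0.365 to 1.72 RPKM, Hba-a1, Hba-a2, Pf4 and Ppbp at 0). Cd8b1 was present at 9.40 to 11.7 RPKM while Cd8a stayed under 1 RPKM. The stimulated libraries differed from the unstimulated ones in their markers as well. The sum of 6 activation markers (Il2ra, Cd69, Tfrc, Irf4, Myc and Il2) was 161 to 213 RPKM unstimulated and 1223 to 1338 RPKM stimulated, that of the 10 T cell markers 3431 to 3660 and 2332 to 2443 RPKM, and that of the 10 myeloid markers 2.28 to 2.95 and 1.44 to 2.10 RPKM, with Itgam called lower. Of the 3 NK cell markers Ncr1 and Klri2 were at or near 0 throughout, and Klrb1c alone moved the sum, from 3.16 to 4.41 RPKM unstimulated to 0.147 to 0.293 RPKM stimulated. Their part in the results was not tested. In these bulk libraries fewer cells of a type and less RNA per cell cannot be told apart.

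In unstimulated cells the most abundant of the 10 mRNAs per length was Slc38a2, at 112.5 ± 4.98 RPKM (SD, n = 2) in control and 109.9 ± 1.50 RPKM in Cd offspring. Slc3a2, Slc1a5, Slc38a1, Slc7a1, Slc7a5, Slc7a6 and Slc43a2 followed between 39.7 and 12.1 RPKM in that order of means in both kinds of offspring. Slc1a4, at 0.511 ± 0.0380 RPKM in control offspring, and Slc43a1, at 0.151 ± 0.0529 RPKM, were far below the others. The ranges of the libraries overlapped between some neighbours in this order, all of them in Cd offspring, namely Slc3a2 with Slc1a5, Slc7a1 with Slc7a5, and Slc7a5 with Slc7a6. After stimulation Slc7a5 stood first by its mean, at 76.3 ± 2.72 RPKM in control and 74.6 ± 2.83 RPKM in Cd offspring, with Slc1a5 next and Slc38a2 in the place after it. Slc1a5 and Slc38a2 overlapped in both stimulated groups, and Slc7a5 and Slc1a5 overlapped in Cd_Stim. Among the 12605 genes tested, Slc7a5 moved from rank 4652 to rank 886 by mean RPKM in control offspring and from 4584 to 900 in Cd offspring.

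**Figure D1:**
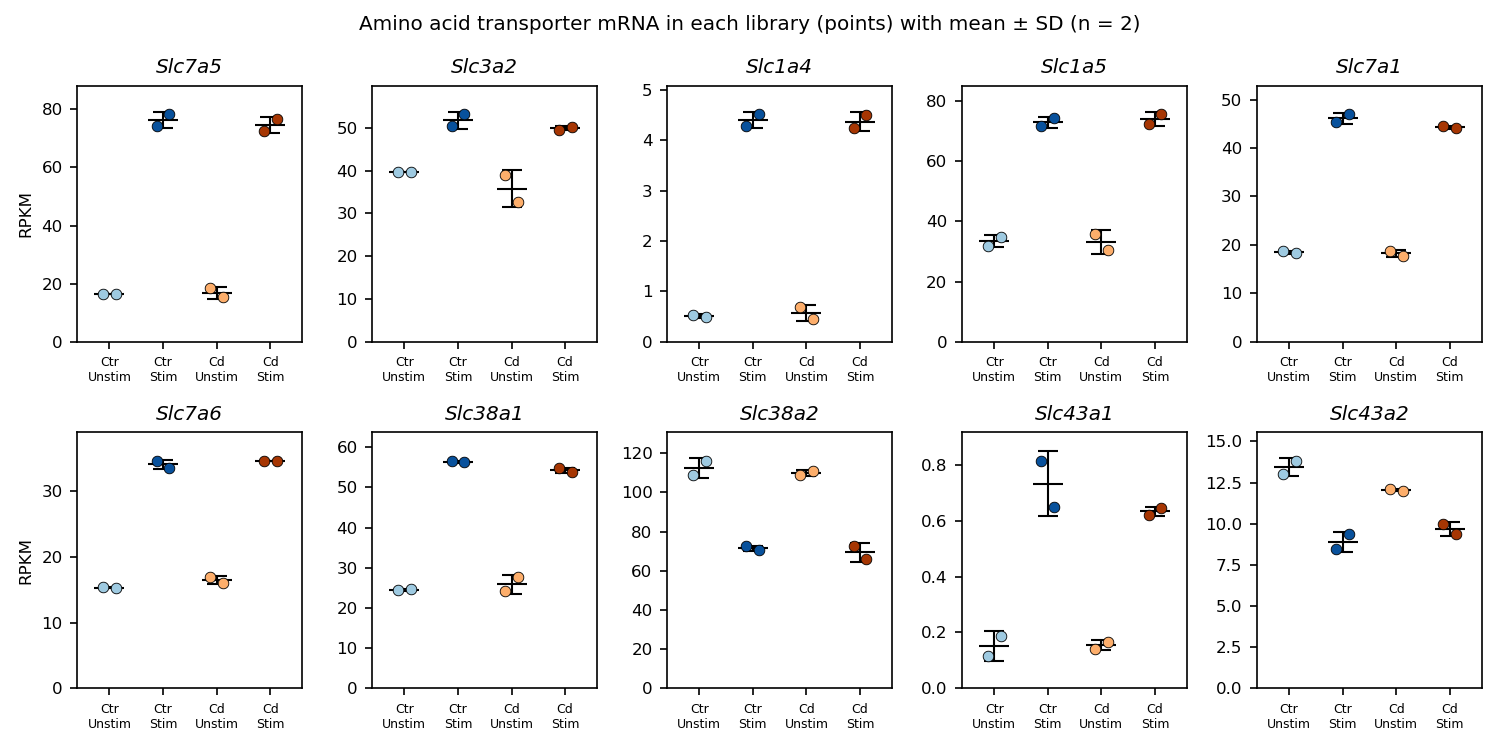
RPKM of each transporter in the 8 libraries (points, by group on the horizontal axis, RPKM from 0 on the vertical axis), with the mean and SD of the 2 libraries of a group as bars. The stimulated libraries lie apart from the unstimulated ones in every panel, below them for Slc38a2 and Slc43a2 and above them for the other 8 genes.

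Upon stimulation 6 of the 9 transporters that could be tested rose more than 2-fold in control offspring (limma, adjusted p under 0.01), and the same 6, Slc1a4, Slc7a5, Slc7a1, Slc38a1, Slc7a6 and Slc1a5, rose in Cd offspring. None fell by that much. Among all 12605 genes, 18.7% were called in control offspring (11.5% higher, 7.17% lower) and 18.6% in Cd offspring (11.4% higher, 7.24% lower). The counts stand beside these shares without a test, as the transporters were chosen with earlier results known. Without the demand for a 2-fold change all 9 had an adjusted p under 0.01, 7 higher and 2 lower. This rested on the settings for Slc3a2 in both kinds of offspring and for Slc43a2 in Cd offspring, as given with those genes. The like share of all genes was 51.7% in control offspring (29.9% higher, 21.8% lower) and 52.5% in Cd offspring (30.2% higher, 22.3% lower). The median log2 fold change of the 9 was 1.15 in control and 1.07 in Cd offspring, beside 0.07 and 0.05 over all genes tested. Slc43a1, with a mean of 0.418 RPKM, was under the minimum mean of 0.5 RPKM and was left out of these counts. For all 9, the libraries of the stimulated and unstimulated groups did not overlap, which held for 83.1% of all genes in each kind of offspring. Under quantile normalization the calls were lost for Slc1a5 in control offspring (log2 fold change 0.99) and for Slc7a6 (0.92) and Slc38a1 (0.90) in Cd offspring.

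Slc7a5 (chr8:121881146-121907686) rose in both kinds of offspring. It stood at 16.6 and 16.6 RPKM in the Ctr_Unstim libraries and at 74.4 and 78.2 RPKM in the Ctr_Stim libraries. In Cd offspring it stood at 18.4 and 15.3 RPKM unstimulated and at 72.6 and 76.6 RPKM stimulated. The 4 stimulated libraries all lay far above the 4 unstimulated ones. The ratio of means was 4.61 in control and 4.42 in Cd offspring, with log2 fold changes of 2.20 (SE 0.085, limma adjusted p = 8.79e-07) and 2.14 (adjusted p = 1.07e-06).

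Its heavy chain Slc3a2 (chr19:8706882-8723369) had a much smaller fold change. Slc3a2 was at 39.7 and 39.7 RPKM in Ctr_Unstim and at 50.4 and 53.2 RPKM in Ctr_Stim. In Cd offspring it was at 38.9 and 32.8 RPKM unstimulated and at 49.6 and 50.3 RPKM stimulated. The stimulated libraries were all above the unstimulated ones, by a ratio of means of 1.30 in control and 1.39 in Cd offspring. The log2 fold changes of Slc3a2 were 0.38 (SE 0.079, limma adjusted p = 0.00373) and 0.48 (adjusted p = 0.00114), past the p threshold and short of the 2-fold one. The p threshold was missed in control offspring under quantile normalization (log2 fold change 0.21, adjusted p = 0.0486), with no trend (adjusted p = 0.0120) and without any 1 of the 4 libraries (Ctr_Stim replicate 6, lowest at 0.0129, to Ctr_Stim replicate 7, highest at 0.0270), and in Cd offspring under quantile normalization (log2 fold change 0.30, adjusted p = 0.0120). Slc7a5 mRNA was below Slc3a2 mRNA in every unstimulated library and above it in every stimulated one. The RPKM ratio of Slc7a5 to Slc3a2 was 0.417 in both Ctr_Unstim libraries and 1.48 and 1.47 in Ctr_Stim. In Cd offspring it went from 0.472 and 0.468 in Cd_Unstim to 1.46 and 1.52 in Cd_Stim.

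The other light chain, Slc7a6 (chr8:106168219-106198714), lay between these. It was at 15.3 and 15.3 RPKM in Ctr_Unstim, 34.6 and 33.6 RPKM in Ctr_Stim, 16.9 and 16.1 RPKM in Cd_Unstim and 34.6 and 34.5 RPKM in Cd_Stim. Stimulated and unstimulated libraries did not overlap, and the log2 fold change of Slc7a6 was 1.15 in control (SE 0.051, limma adjusted p = 1.54e-06) and 1.06 in Cd offspring (adjusted p = 2.20e-06). The RPKM ratio of Slc7a6 to Slc3a2 ranged from 0.386 to 0.490 in unstimulated and from 0.631 to 0.698 in stimulated libraries, below 1 throughout.

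Slc1a4 (chr11:20302180-20332713), the exchanger whose promoter window holds the TGATGNAA match shown above, had the largest ratio of stimulated to unstimulated RPKM of the 10, from a low start. A link between the match and this ratio was not tested. The levels of Slc1a4 were 0.538 and 0.484 RPKM in Ctr_Unstim, from 38 and 31 reads, and 4.29 and 4.52 RPKM in Ctr_Stim, from 262 and 345 reads. In Cd offspring they were 0.682 and 0.459 RPKM unstimulated and 4.24 and 4.51 RPKM stimulated. The groups lay wide apart, with a ratio of means of 8.62 in control and 7.67 in Cd offspring, although the stimulated level was still the second lowest of the 10 genes. The log2 fold changes of Slc1a4, on log2(RPKM + 0.1), were 2.88 (SE 0.19, limma adjusted p = 9.23e-06) and 2.76 (adjusted p = 1.21e-05). With a pseudocount of 1 they came to 1.84 and 1.78, below those of Slc7a5 at 2.14 and 2.09.

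Slc1a5 (chr7:16781334-16798274), its paralog, began some way up and rose less. It was at 31.9 and 34.9 RPKM in Ctr_Unstim, 71.5 and 74.1 RPKM in Ctr_Stim, 35.9 and 30.4 RPKM in Cd_Unstim and 72.4 and 75.5 RPKM in Cd_Stim. No unstimulated library reached the level of a stimulated one. The log2 fold changes of Slc1a5 were 1.12 (SE 0.084, limma adjusted p = 1.72e-05) and 1.16 (adjusted p = 1.51e-05). Their 95% intervals, 0.93 to 1.32 and 0.96 to 1.36, included the 2-fold threshold, as did those of Slc7a6 (0.94 to 1.18) and Slc38a1 (0.91 to 1.22) in Cd offspring. The RPKM ratio of Slc1a4 to Slc1a5 was 0.0139 to 0.0190 in unstimulated and 0.0586 to 0.0609 in stimulated libraries, so that Slc1a5 remained the main mRNA of the pair per length.

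Slc38a1 and Slc38a2, the sodium-coupled glutamine carriers, moved in opposite directions. Slc38a1 (chr15:96571418-96643438) was at 24.4 and 24.7 RPKM in Ctr_Unstim, 56.6 and 56.2 RPKM in Ctr_Stim, 24.2 and 27.6 RPKM in Cd_Unstim and 54.7 and 53.8 RPKM in Cd_Stim. It was higher in every stimulated library, with log2 fold changes of 1.20 in control (SE 0.065, limma adjusted p = 3.47e-06) and 1.07 in Cd offspring (adjusted p = 6.26e-06). In Cd offspring this call was lost without Cd_Unstim replicate 6 (log2 fold change of Slc38a1 0.97). Slc38a2 (chr15:96687392-96699728) was at 109 and 116 RPKM in Ctr_Unstim, 72.4 and 70.5 RPKM in Ctr_Stim, 109 and 111 RPKM in Cd_Unstim and 72.6 and 66.0 RPKM in Cd_Stim. It was lower in every stimulated library, by log2 fold changes of -0.65 (SE 0.059, limma adjusted p = 4.66e-05) and -0.67 (adjusted p = 4.30e-05), again without reaching a 2-fold change. The RPKM ratio of Slc38a1 to Slc38a2 was 0.213 to 0.249 in unstimulated libraries and 0.754 to 0.815 in stimulated ones. A long noncoding RNA gene, Gm32457, overlaps Slc38a1, so that some of its reads could come from that gene.

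Slc7a1 (chr5:148327410-148399904), the arginine and lysine carrier, rose with little spread. Its levels were 18.7 and 18.3 RPKM in Ctr_Unstim, 45.3 and 46.9 RPKM in Ctr_Stim, 18.8 and 17.7 RPKM in Cd_Unstim and 44.5 and 44.1 RPKM in Cd_Stim. The groups did not overlap. The log2 fold change of Slc7a1 was 1.32 in control (SE 0.052, limma adjusted p = 9.30e-07) and 1.27 in Cd offspring (adjusted p = 1.17e-06).

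The LAT3 and LAT4 genes also differed in direction. Slc43a2 (chr11:75529915-75577575) was at 13.0 and 13.8 RPKM in Ctr_Unstim, 8.49 and 9.35 RPKM in Ctr_Stim, 12.1 and 12.0 RPKM in Cd_Unstim and 9.96 and 9.40 RPKM in Cd_Stim. All stimulated libraries were below all unstimulated ones, with log2 fold changes of -0.59 in control (SE 0.075, limma adjusted p = 0.000299) and -0.31 in Cd offspring (adjusted p = 0.00752), under 2-fold in both. In Cd offspring the p threshold was missed with no filter (limma adjusted p = 0.0104), with no trend (0.0108) and with the libraries of the comparison alone (0.0173). It was also missed with a block for the replicate number and without any 1 of the 4 libraries. Over all alternatives the log2 fold change of Slc43a2 in Cd offspring ran from -0.43 to -0.27. Slc43a1 (chr2:84838855-84863586) rested on 6 to 10 reads in each unstimulated and 37 to 48 reads in each stimulated library. It was at 0.114 and 0.189 RPKM in Ctr_Unstim, 0.814 and 0.651 RPKM in Ctr_Stim, 0.141 and 0.167 RPKM in Cd_Unstim and 0.622 and 0.644 RPKM in Cd_Stim. Its libraries did not overlap between stimulated and unstimulated cells. In a fit of all 18973 genes above 0 in any library, its log2 fold changes were 1.74 (SE 0.24, limma adjusted p = 0.00109) and 1.53 (adjusted p = 0.00203), where 13.9% of genes in control and 14% in Cd offspring were called. The RPKM ratio of Slc43a1 to Slc43a2 stayed under 0.1 in all libraries. A long noncoding RNA gene, D930003E18Rik, overlaps the start of Slc43a1.

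**Figure D2:**
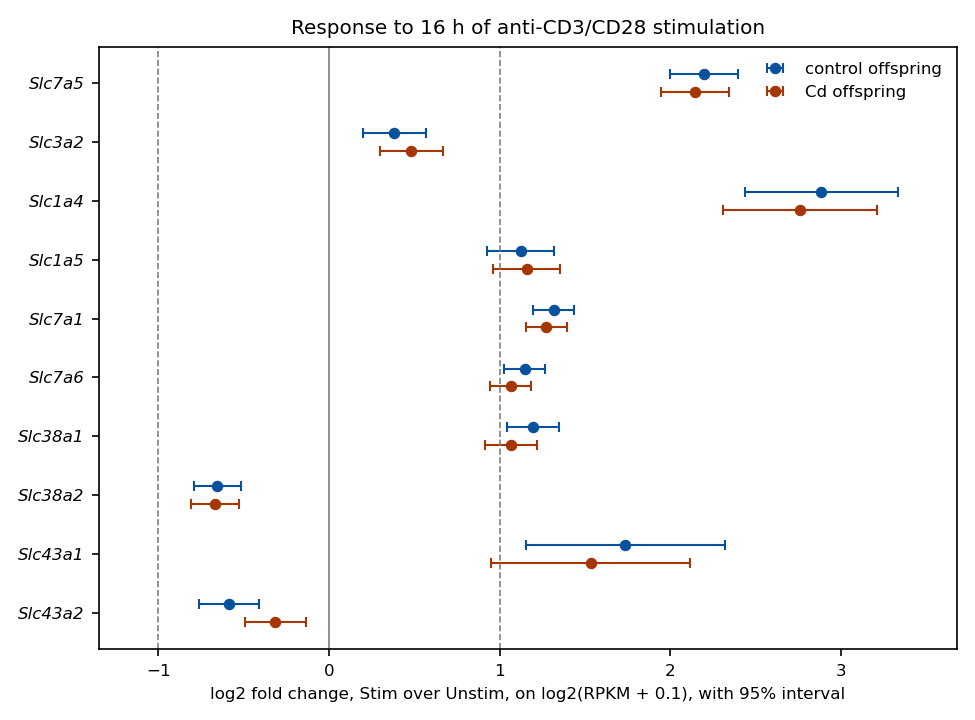
Log2 fold change of Stim over Unstim (horizontal axis, on log2(RPKM + 0.1)) for each transporter in control and Cd offspring, with 95% intervals from limma, and dashed lines at a 2-fold change. Slc7a5 and Slc1a4 lie furthest to the right, near 2.20 and 2.88 in control offspring, and Slc38a2 and Slc43a2 lie left of 0. Slc43a1 comes from the fit without a minimum level.

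The summed level of the 10 mRNAs was higher in all stimulated libraries, and their make-up differed. The sum was 269 and 280.0 RPKM in Ctr_Unstim, 419 and 427 RPKM in Ctr_Stim, 275 and 264 RPKM in Cd_Unstim and 416 and 415 RPKM in Cd_Stim. Slc38a2 made up 39.6% to 42.1% of the sum in unstimulated libraries and 15.9% to 17.5% in stimulated ones. Slc7a5 went from 5.82% to 6.69% of the sum to 17.5% to 18.4%, and Slc1a5 from 11.5% to 13.1% to 17.1% to 18.2%. Slc3a2, by contrast, held 12.4% to 14.7% unstimulated and 11.9% to 12.4% stimulated, and these ranges met. The sums describe the values without a test, as the members had been chosen with results of these data known.

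**Figure D3:**
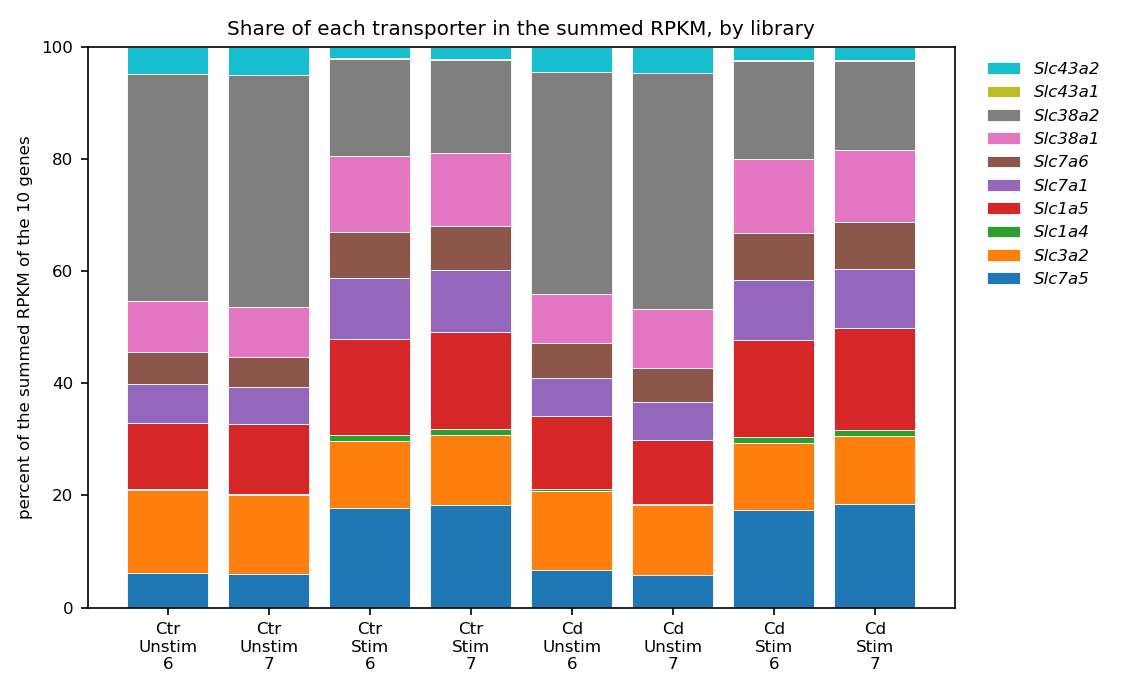
Share of each transporter in the summed RPKM of the 10 genes (stacked to 100% on the vertical axis) in each of the 8 libraries (horizontal axis, group and replicate number). Slc38a2 goes from 39.6% or more to 17.5% or less of the sum between the unstimulated and stimulated libraries, and Slc7a5 goes from at most 6.69% to at least 17.5%.

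**Figure D4:**
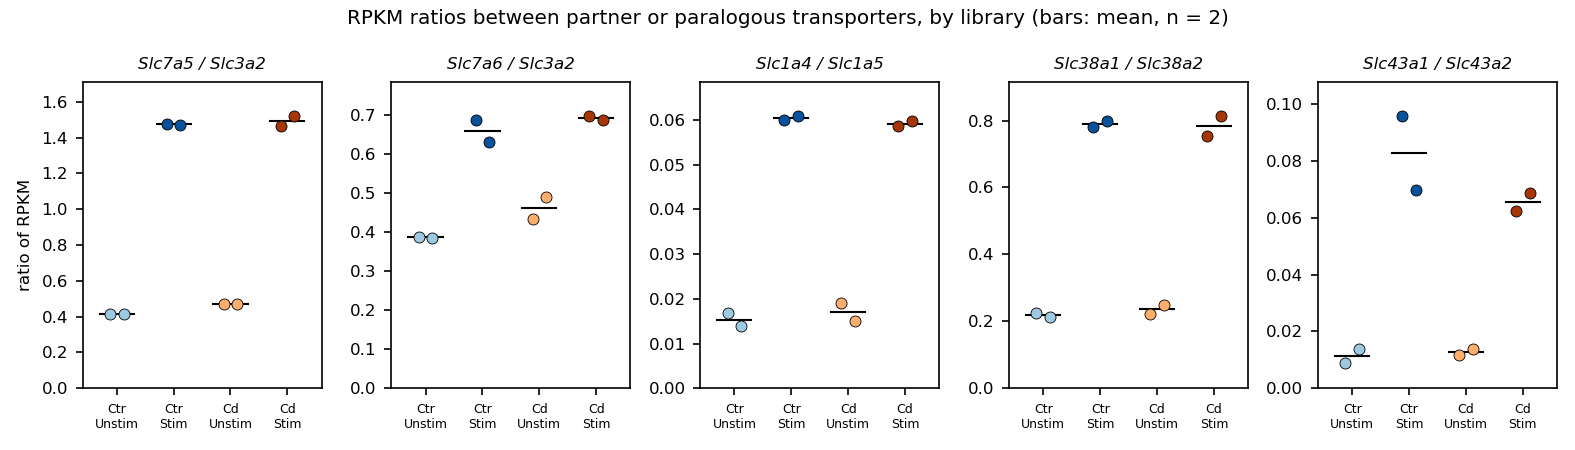
RPKM ratio of each light chain to Slc3a2 and of each pair of paralogs in the 8 libraries (points, by group on the horizontal axis, ratio from 0 on the vertical axis), with the mean of the 2 libraries as a bar. All stimulated libraries lie above all unstimulated ones in each panel, and the ratio of Slc7a5 to Slc3a2 passes 1 only there.

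No transporter differed past the threshold between Cd and control offspring in unstimulated cells. None of the 9 was called (limma, adjusted p under 0.05), the lowest adjusted p was 0.413, and none had an unadjusted p under 0.05. Among all genes 0.896% were called and 13.9% had an unadjusted p under 0.05. The log2 fold changes of Cd over control ran from -0.15 for Slc43a2 (95% interval -0.33 to 0.02) to 0.11 for Slc1a4 (95% interval -0.33 to 0.56). Slc3a2 stood at -0.15 (95% interval -0.34 to 0.03), with 38.9 and 32.8 RPKM in Cd_Unstim below 39.7 and 39.7 RPKM in Ctr_Unstim. Slc7a6 stood at 0.10 (95% interval -0.02 to 0.22), with both Cd libraries above both control ones. The libraries of the groups did not overlap for 3 of the 9, Slc3a2, Slc7a6 and Slc43a2, beside 42.3% of all genes. The median over the 9 was -0.02, and over all genes 0.01. The Cd_Unstim libraries were lower than the Ctr_Unstim libraries in the summed activation markers, at 161 to 179 against 190 to 213 RPKM, and in the summed T cell markers, at 3431 to 3481 against 3543 to 3660 RPKM, and their part in the result was not tested. The activation sum was mostly Cd69, at 156 and 136 RPKM in Ctr_Unstim and 116 and 106 RPKM in Cd_Unstim. The median log2 fold change of the 6 activation markers was -0.007. Of the 6 activation markers only Il2 was called there, at a log2 fold change of -0.86 (limma adjusted p = 0.0409). Il2 was low, at 0.703 and 0.517 RPKM in Ctr_Unstim and 0.271 and 0.308 RPKM in Cd_Unstim. Cd69 (-0.39) and Irf4 (-0.06) also had negative log2 fold changes, and Il2ra (0.14), Myc (0.09) and Tfrc (0.05) had positive ones.

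In stimulated cells too no transporter differed past the threshold. None of the 9 was called and each had an adjusted p of 1 in limma, in a comparison in which 0% of all genes were called and 3.28% of genes, 414 in number, but none of the 9, had an unadjusted p under 0.05. The log2 fold changes of Cd over control ran from -0.06 for Slc7a1 (95% interval -0.18 to 0.06) to 0.12 for Slc43a2 (95% interval -0.06 to 0.29). For Slc7a5 the difference was -0.03 (95% interval -0.23 to 0.16), and for Slc1a4, with the widest interval of the 9, it was -0.01 (95% interval -0.46 to 0.44). The libraries did not overlap for 4 of the 9, Slc3a2, Slc7a1, Slc38a1 and Slc43a2, beside 36.7% of all genes. The summed activation markers were lower in Cd_Stim than in Ctr_Stim, at 1223 to 1270 against 1326 to 1338 RPKM, and the summed T cell markers higher, at 2415 to 2443 against 2332 to 2365 RPKM, and their part in the result was not tested. None of these 6 activation and 10 T cell markers was called there. The activation markers ran from a log2 fold change of -0.18 for Il2 to -0.006 for Myc. Irf4 was the largest part of their sum, at 525 and 561 RPKM in Ctr_Stim and 486 and 522 RPKM in Cd_Stim. Among the T cell markers Cd28 went the other way, at 150 and 140 RPKM in Ctr_Stim and 144 and 131 RPKM in Cd_Stim. Slc43a1, in the fit without a minimum level, differed by 0.03 in unstimulated and -0.18 in stimulated cells, with intervals reaching from -0.55 to 0.61 and from -0.76 to 0.41.

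**Figure D5:**
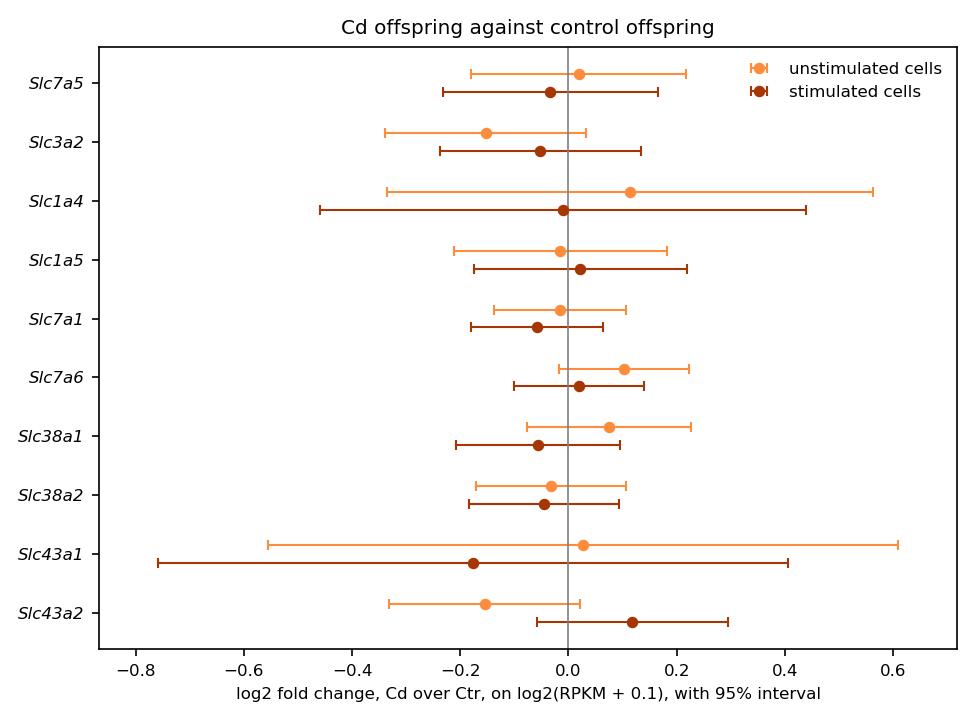
Log2 fold change of Cd over control offspring (horizontal axis, on log2(RPKM + 0.1)) for each transporter in unstimulated and stimulated cells, with 95% intervals from limma. All intervals include 0, and those of Slc1a4 and Slc43a1, the genes with the fewest reads, are the widest.

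The response to stimulation itself was compared between Cd and control offspring as an interaction. None of the 9 was called at an adjusted p under 0.05, where 0.357% of all genes were. For Slc43a2 the log2 fold change was less negative in Cd offspring by 0.27 (SE 0.11, 95% interval 0.02 to 0.52, limma adjusted p = 0.435). It was the one transporter of the 9 with an unadjusted p under 0.05, as 10.6% of all genes had. For the other 8 the differences ran from -0.13 for Slc38a1 (95% interval -0.35 to 0.08) to 0.10 for Slc3a2 (95% interval -0.16 to 0.36). The intervals bound what 2 libraries a group could show, and do not establish that the responses were alike.

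Mir3971, within Slc43a2, was higher in Cd offspring in unstimulated cells. Its levels were 2.68 and 2.96 RPKM in Ctr_Unstim, 7.45 and 12.3 RPKM in Cd_Unstim, 3.88 and 4.96 RPKM in Ctr_Stim and 5.48 and 4.25 RPKM in Cd_Stim. These rest on 4 and 4, 12 and 21, 5 and 8, and 10 and 9 reads. Both Cd_Unstim libraries lay above all 6 others. The log2 fold change of Mir3971 for Cd over control was 1.73 in unstimulated cells (SE 0.24, limma adjusted p = 0.0312), in a comparison with 0.135% of all genes called as higher, and 0.14 in stimulated cells (adjusted p = 1). The call was lost with all genes fitted (adjusted p = 0.0687), without Ctr_Unstim replicate 6 (adjusted p = 0.171), without Ctr_Unstim replicate 7 (adjusted p = 0.0940) and without Cd_Unstim replicate 7 (adjusted p = 0.0530). It was also lost with no trend (adjusted p = 0.101), by voom on the recovered reads (adjusted p = 0.130) and with the 4 libraries of the comparison alone (adjusted p = 0.0775). A library of mRNA fragments does not hold the mature microRNA, and reads on the hairpin and reads of an unspliced Slc43a2 transcript cannot be told apart.

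Other genes of amino acid transport and use were followed from lists set by function or gene family. Of 35 other carriers of the plasma membrane only 7 reached the minimum level, and 3 of them rose in both kinds of offspring, where 11.5% of all genes in control and 11.4% in Cd offspring were called as higher. They were Slc6a9 (GLYT1, a glycine carrier), Slc43a3 and Slc6a6 (TauT, a taurine carrier). Slc6a9 went from 0.0621 to 1.98 RPKM in control offspring, with a log2 fold change of 3.68, beside 2.72 for Slc43a3 and 1.01 for Slc6a6. Slc43a3 was listed by its gene family, and whether it carries amino acids is not shown here. Slc3a1, the heavy chain of the cystine carrier, fell in Cd offspring, by 1.70 on the log2 scale, and had a log2 fold change of -0.66 in control offspring (limma adjusted p = 0.0234). The median of the 7 was 0.72 in control and 0.46 in Cd offspring. Slc7a11, the cystine and glutamate exchanger, stayed between 0.0475 and 0.222 RPKM.

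Of the 19 lysosomal, mitochondrial and other organelle carriers tested, 3 rose in both kinds of offspring, a share near the 11.5% and 11.4% of all genes. They were Slc25a13 (citrin, the mitochondrial aspartate and glutamate carrier) at a log2 fold change of 2.69 in control offspring, Slc25a15 (the ornithine carrier) at 1.61, and Sfxn1 (the mitochondrial serine carrier) at 1.45. Slc25a12 and Slc25a18 passed the 2-fold threshold downward in Cd offspring only, with log2 fold changes of -1.08 and -1.33 there and -0.96 and -0.78 in control offspring, and for both the adjusted p in control offspring was also under 0.01. They, Slc3a1 and Arg2 were named after their values were seen, and none of the 4 was called in the interaction. The median of the list was -0.09 in control and -0.14 in Cd offspring, beside 0.07 and 0.05 over all genes.

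Of the 38 genes of amino acid sensing upstream of mTORC1 that were tested, 3 rose in control offspring, below the share of 11.5% of all genes. They were Fnip2, a partner of folliculin, at a log2 fold change of 3.40, Rragd, a Rag GTPase, at 1.38, and Lars, the leucyl-tRNA synthetase, at 1.24. Fnip2 and Lars rose in Cd offspring too, and Rragd had 0.98 there with a limma adjusted p of 0.0121. The median of the 38 was 0.13 in control and 0.08 in Cd offspring, near that of all genes. Among 28 genes of intracellular amino acid use, 10 rose in control and 8 in Cd offspring, beside 11.5% and 11.4% of all genes, with a median of 0.44 and 0.48. Bcat1, which transaminates branched-chain amino acids, went from 0.177 to 10.1 RPKM in control and from 0.156 to 10.2 RPKM in Cd offspring, with log2 fold changes of 5.21 and 5.35. Pycr1, of proline synthesis, rose by 3.52 and Asns, the asparagine synthetase, by 3.39 in control offspring. Arg2 fell in Cd offspring, by 1.01 on the log2 scale, and had -0.42 in control offspring (limma adjusted p = 0.0999). No gene of these 4 lists was called in the comparisons of Cd with control offspring or in the interaction, and the lowest adjusted p in limma was 0.0554, in unstimulated cells.

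The 5 genes whose log2 level followed that of Slc7a5 most closely over the 8 libraries, among 8680 genes with a mean of at least 5 RPKM, were Smyd5, Mettl1, Ifrd2, Cad and Tnf. Their root mean square distances from the centred Slc7a5 profile were 0.0440, 0.0497, 0.0532, 0.0540 and 0.0582 on the log2 scale. Mettl1 methylates tRNA, Cad makes pyrimidines, and Tnf is a cytokine of activated T cells. Cad, for one, stood at 14.7 RPKM in Ctr_Unstim, 64.9 RPKM in Ctr_Stim, 14.6 RPKM in Cd_Unstim and 63.0 RPKM in Cd_Stim. The likeness rests mainly on the step between unstimulated and stimulated libraries, which all 5 share with Slc7a5.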

How the data were processed

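RNA sequencing libraries of splenic CD4+ T cells, 8 in 4 groups of 2, were grouped by their labels. Alignment to mm10 (Subread) and counting over RefSeq transcripts (featureCounts) were done by the authors. Versions, strand settings and the treatment of reads with several alignments were not given in the sources used here. The deposited values are on a log2 scale, log2(RPKM + 1) + 0.0001, which was read from the values, and were back-transformed. The depth (15542732 to 25486791 reads) was derived from the values, with the known lengths of microRNA hairpins and the ratios between libraries. At this depth, of 17794 genes above 0 in at least 2 libraries, 17792 gave whole reads in every library within 0.0001 read. Gene IDs were matched to RefSeq for 25275 of 27179 genes, and coordinates are those of GRCm38.p6, an mm10 assembly.

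Genes with a mean of at least 0.5 RPKM (12605) were fitted as log2(RPKM + 0.1) with limma 3.58.1 under R 4.3.3, using a mean for each of the 4 groups, 4 residual degrees of freedom, empirical Bayes moderation with a trend, and Benjamini-Hochberg adjustment over all genes tested. Fold changes on this scale understate the change of low genes. A call needed an adjusted p under 0.01 with a change over 2-fold for stimulation, and an adjusted p under 0.05 for Cd and the interaction. For single values, an exact permutation test of 2 against 2 libraries cannot go below a two-sided p of 0.333, and none was used. A further marker list is not reported here.

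The transporters, lists and motifs were chosen with earlier results of these data known. All 10 transporters are named, then of each other amino acid list up to 3 called genes with the largest rise and fall in control offspring and called genes of the Cd comparisons, the 5 genes nearest to Slc7a5, and a microRNA gene within a transporter. Alternatives were pseudocounts of 0.5 and 1, no filter and a minimum of 1 RPKM, median-of-ratios and quantile scaling, and no trend. A replicate block was fitted by number and, for stimulation and the interaction, also by exposure and number. Voom on the recovered reads, a further minimum of log2(CPM) over 1, the libraries of 1 comparison only, and each library left out were also run. Tables and plots used Python 3.11.15, numpy 2.4.6, pandas 2.3.3 and matplotlib 3.10.9.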

Additional observations from a re-analysis of the deposited data

How the results depend on the processing

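The count of 6 called transporters upon stimulation held in control and in Cd offspring under every alternative run but these. Quantile normalization left 5 in control offspring (Slc1a5 at a log2 fold change of 0.99) and 4 in Cd offspring (Slc7a6 at 0.92 and Slc38a1 at 0.90), and leaving out Cd_Unstim replicate 6 left 5 in Cd offspring. No called value changed sign, and no transporter was called for Cd or in the interaction under any alternative. With a replicate block by the numbers 6 and 7, the counts of called transporters were 6 in control and 6 in Cd offspring and 0 in the other 3 comparisons, and Slc43a2 upon stimulation in Cd offspring had a limma adjusted p of 0.0142 in place of 0.00752. Between stimulated and unstimulated libraries of the same number, the deviations correlated by 0.0635 in control and 0.00851 in Cd offspring. With 2 libraries a group such values cannot decide whether a number marks 1 animal, and the main fit used no pairing. Over all genes the block by number, which also ties control to Cd libraries, moved the calls for Cd in unstimulated cells from 113 to 76. It moved those in the interaction from 45 to 36, and a block by exposure and number left 25. Median-of-ratios scaling moved the summed level of the 10 transporters to 410 RPKM in Ctr_Stim and 407 RPKM in Cd_Stim, from 423 and 416 RPKM. The backgrounds were less stable. For Cd in unstimulated cells 211 genes were called by voom, 14 with no trend, 65 without a filter, 52 with the libraries of the comparison only and 19 without Ctr_Unstim replicate 6, and the interaction called 111 by voom and 4 with no trend. With 2 libraries a group, differences between Cd and control offspring within the intervals given were not detectable, and Slc1a4, Slc43a1 and Mir3971 are limited by few reads.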
